A study of Mus musculus with 20 samples.

Results

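Heated fibroblasts without heat shock factor 1 (HSF1 -/-, called KO) were set against heated fibroblasts with it (HSF1 +/+, called WT), one array against another at the same label time. This comparison used 14 of the 20 arrays in the series, chosen by genotype and label time alone: 1 KO and 1 WT array at each of 0.5, 1, 2, 3, 4, 6 and 8 h of heat shock, which form 7 pairs. The other 6 arrays, 3 KO and 3 WT at 0 h, gave the difference between the same cells before heat. The sample was labelled with Cy5 on every array, and its Cy3 partner was always the same pool, mixed from the mRNA of unheated mouse fibroblasts and of others after 1 h of heat shock. Each value was read as a log2 ratio of sample to pool and taken relative to the median of its array, so that a difference of 1 stands for a 2-fold change. The base and the direction of the ratio were not stated. Sample over pool is the likely direction, since on that reading the heat-inducible HSP70 genes are higher in heated than in unheated WT cells, and the opposite one would turn every sign given here. The labels name the cells as mouse fibroblasts and give no strain, temperature or passage. Nor do they say whether a label time was spent in the heat or counts from the end of it. They do not say whether a genotype is 1 line or several, so an effect of HSF1 and any other difference between the cell lines cannot be told apart. In a bulk sample, fewer cells of a type and less RNA per cell cannot be told apart either.

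HSF1 is the transcription factor that answers unfolded protein in the cytosol. In unstressed cells it is held inactive by chaperones, and in the heat it forms trimers, enters the nucleus and binds heat shock elements, inverted repeats of the letters GAA, in front of chaperone genes. The chaperones made in response bind unfolded chains, refold them or hand them to the proteasome. The HSP70 proteins work with HSP40 partners, which bring clients, and with exchange factors, which release them. HSP90 matures kinases and receptors, and small heat shock proteins hold unfolded chains in solution.

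Arrays held 39037 to 42220 values, and 10590 genes could be tested. Hsf1, Hsf2 and Hsp90ab1 had no probe listed for them, so they were not analysed here and the deletion was not checked by its own transcript. The spread of values on an array, as the median absolute deviation, was 0.682 to 1.11 on the 7 heated KO arrays, with the lowest at 8 h and 0.704 at 6 h, and 0.814 to 1.18 on the 7 heated WT arrays. The labels number the scan images in 1 unbroken run per genotype, so that order and genotype cannot be told apart. Levels relative to a fibroblast pool do not show how much of a marker the cells hold. Of the fibroblast markers, Pdgfra and Col3a1 were higher in heated KO cells and the other 6 of the 8 tested did not pass. Col3a1 turned to -0.19 with 1 probe per gene and was not called without the 4 h or the 6 h pair. Of the markers of other cell types, 4 of the 33 tested passed. Itgam (a macrophage integrin), Eng (an endothelial receptor) and Acta1 (skeletal actin) were lower in heated KO cells, Pparg (an adipocyte regulator) was higher, the last 3 of these calls ending without single pairs, and 0 of 7 epithelial and 0 of 5 neural markers passed limma's test, also at an unadjusted p under 0.05. The part of such cells in the results was not tested.

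Heated KO cells held less of 17 of the 60 chaperone transcripts tested on 5 lists, among them the inducible HSP70 genes, than heated WT cells, and they differed in some matrix, ribosomal and actin genes, part of which differed before heat as well. A gene was called when its mean difference over the 7 pairs had a Benjamini-Hochberg adjusted p under 0.05 in limma, fitted over all genes. Of 10590 genes, 590 (5.57%) were called: 333 (3.14%) lower and 257 (2.43%) higher in heated KO cells, while 2310 had an unadjusted p under 0.05. All 7 differences had one sign for 1168 genes (11%), of which 649 (6.13%) were lower in KO cells in every pair and 519 (4.9%) higher. Among called genes the 2 largest differences were those of the stress-inducible HSP70 genes Hspa1b (-5.11 ± 0.57, SE, n = 7 pairs, KO minus WT) and Hspa1a (-4.86 ± 0.64). The largest in the other direction was that of Penk, which encodes the opioid precursor proenkephalin (3.35 ± 0.19).

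At 0 h, 499 genes (4.71%) were called, 271 (2.56%) lower and 228 (2.15%) higher in KO cells. Of the 590 genes called in heated cells, 281 were also called at 0 h, all with the same sign (113 higher and 168 lower in KO cells), and 309 were not. Of those 309, 279 had a 0 h difference of the same sign and 30 of the opposite sign. Thus 560 of the 590 heated calls leaned the same way at 0 h, and 481 of the 499 calls at 0 h leaned the same way in heated cells. Among the 281 genes the median size of the difference was 0.83 in heated cells and 1.15 at 0 h. Among the other 309 it was 0.72 in heated cells and 0.53 at 0 h in the heated direction. Over all 590 genes both medians were 0.79. The split rests on the 0 h call, so it sets the 0 h sizes of the 2 parts apart by itself. Across all genes the heated and the 0 h difference had a Pearson r of 0.439 and a Spearman rho of 0.402. Genes are not independent replicates, and every difference shares the same pool.

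**Figure D1:**
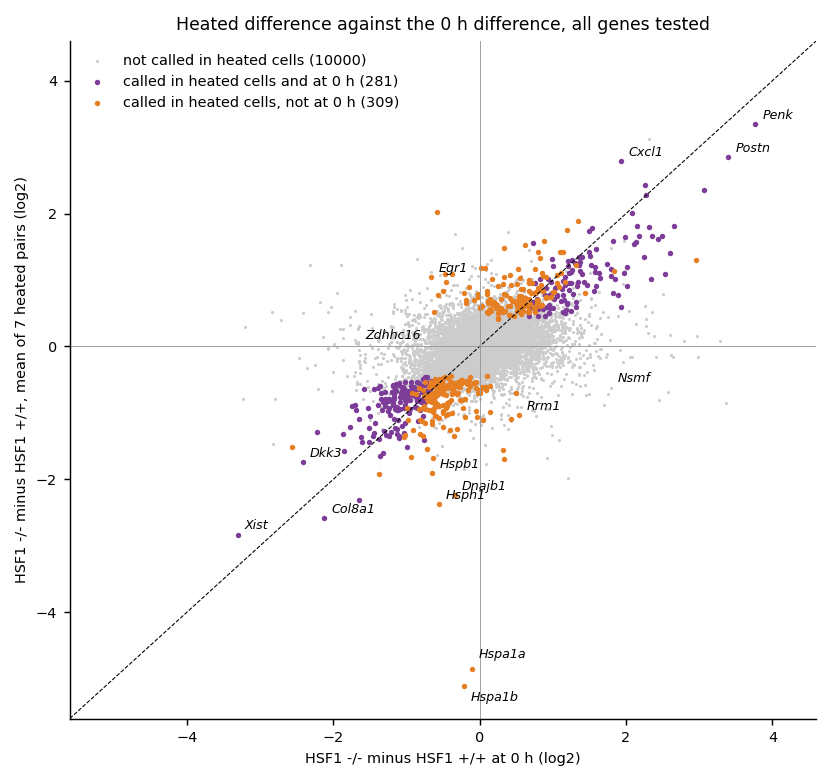
Each point is 1 of 10590 genes. The y axis is the mean KO minus WT difference over the 7 heated pairs and the x axis the KO minus WT difference at 0 h (both log2). Purple points were called in both (281) and orange points in heated cells but not at 0 h (309). The dashed line marks equal differences: Postn, Penk, Col8a1 and Xist lie near it, while Hspa1a and Hspa1b lie near 0 on the x axis and near -5 on the y axis.

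The inducible HSP70 genes carried the widest gap. Hspa1a encodes the cytosolic HSP70 that is made anew in stress. Its ratio to the pool ranged from -2.84 to -1.94 (median -2.43) on the 7 heated KO arrays, against -1.90 to 3.92 (median 3.12) on the 7 heated WT arrays. At 0 h it read -2.76, -2.66 and -2.37 on the KO arrays and -2.33, -2.76 and -2.36 on the WT arrays. No heated KO array reached the lowest heated WT array, and at 0 h the genotypes overlapped. The paired difference was -0.45 at 0.5 h, -4.00 at 1 h, -5.75 at 2 h, -6.24 at 3 h, -5.39 at 4 h, -6.66 at 6 h and -5.51 at 8 h. The mean of -4.86 is a 29.0-fold lower level in heated KO cells (limma adjusted p = 0.00324), or 48.2-fold without the 0.5 h pair. The 0 h difference was -0.11 ± 0.83 (limma adjusted p = 0.963). Its SE comes from a fit of all arrays. It therefore includes change of the difference over the heated times and is not the spread of the 0 h arrays alone.

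Hspa1b, the neighbouring and nearly identical copy, ran in parallel, and each of the pair can bind the probe of the other. Its paired differences were -1.24, -4.70, -5.79, -6.55, -5.27, -6.91 and -5.33 from 0.5 to 8 h (adjusted p = 0.00141, 34.6-fold lower in KO cells, or 54.1-fold without the 0.5 h pair). Heated KO arrays read -2.23 to -1.79, against -0.62 to 4.74 on the heated WT arrays, without overlap. At 0 h Hspa1b read -1.70 to -1.395 on the 3 KO arrays. Only 2 WT arrays of 0 h had a value for it, at -1.32 and -1.30. For both genes the difference at 0.5 h lay nearest to 0, apart from the other 6. At that time the WT array read -1.90 for Hspa1a, close to its 0 h values.

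**Figure D2:**
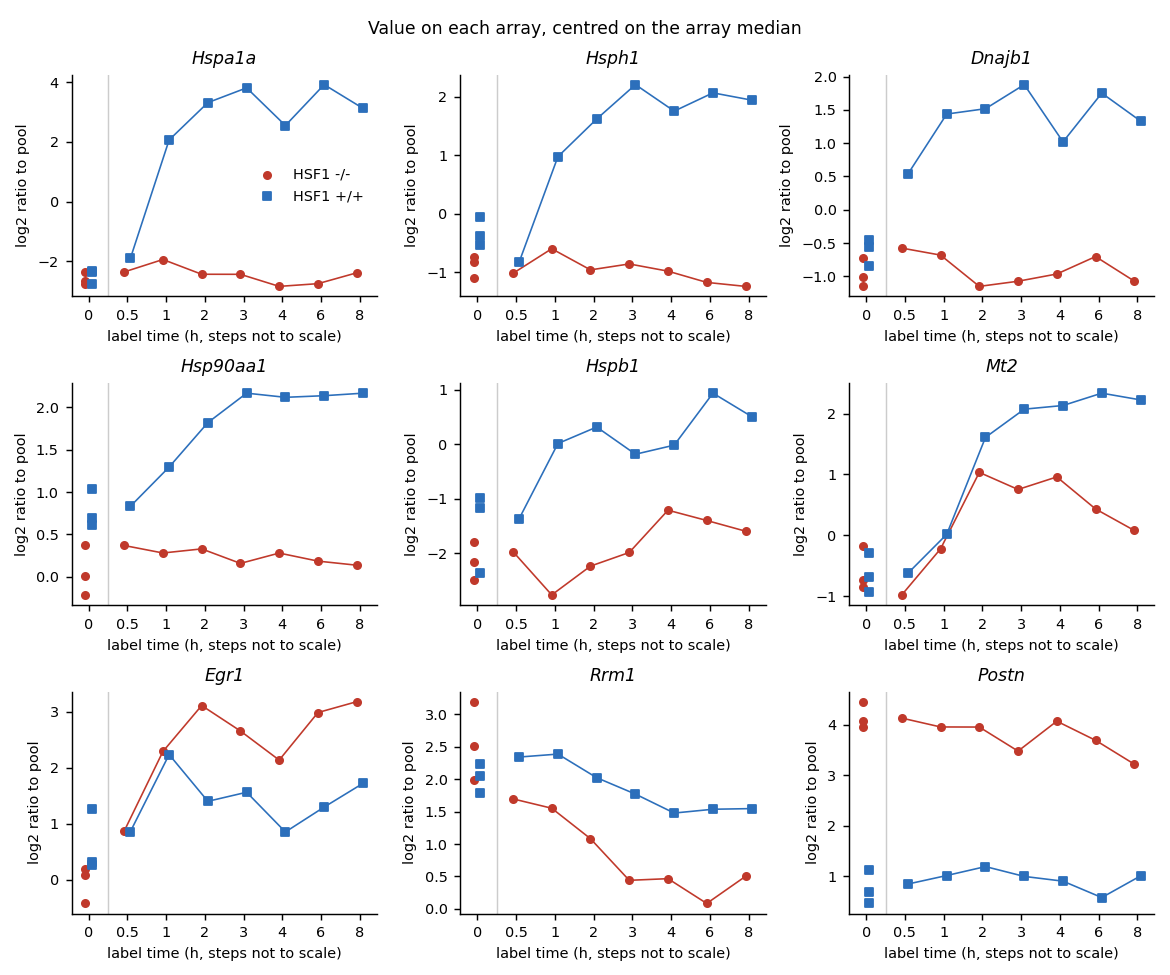
Log2 ratio to the pool on each array for 9 genes, against label time in h with the 3 arrays of 0 h per genotype at the left (time steps not to scale). Red circles are KO arrays and blue squares WT arrays. For Hspa1a, Hsph1, Dnajb1 and Hsp90aa1 the KO line stays near its 0 h values while the WT line climbs, Postn is apart at every time, Rrm1 overlaps at 0 h, and the KO arrays of Egr1 lie below the WT arrays at 0 h and above them from 2 h on.

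Other HSP70-type chaperones differed less. Of the HSP70 and HSP110 list, 5 of 8 tested genes were lower in heated KO cells and 0 higher, with a list median of -1.33 against 0.02 over all genes. At 0 h, 0 of these 8 were called and the list median was -0.18. Hsph1, the HSP110 that exchanges nucleotide on HSP70, ranged from -1.25 to -0.60 (median -0.99) on heated KO arrays, against -0.83 to 2.21 (median 1.76) on heated WT arrays. Only the WT array at 0.5 h lay within the KO range. At 0 h Hsph1 read -1.09 to -0.74 on KO arrays, against -0.53 to -0.06 on WT arrays, without overlap. The Hsph1 differences were -0.19, -1.58, -2.58, -3.07, -2.74, -3.25 and -3.19 from 0.5 to 8 h, with a mean of -2.37 ± 0.35 (adjusted p = 0.0055).

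Hspa8, the HSP70 present in all cells, was lower in heated KO cells by a smaller amount at every time. It ranged from 0.62 to 1.17 on heated KO arrays, against 2.11 to 3.21 on heated WT arrays, with no overlap (mean difference -1.68 ± 0.18, adjusted p = 0.00124). Its 0 h values did not overlap either, with 1.34, 0.93 and 1.20 in KO cells and 1.73, 1.95 and 1.70 in WT cells, yet the 0 h difference of -0.64 was not called (adjusted p = 0.172). Of all 10590 genes, 2663 (25.1%) had no overlap between the genotypes at 0 h. The fifth gene, Hspa4l, an HSP110 relative, had a mean of -0.98 (adjusted p = 0.0454). Hspa2 (-0.95, adjusted p = 0.0635), the testis-enriched HSP70, did not pass. Both Hspa4l and Hspa2 were singled out after their values were seen.

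Some partners of HSP70 and HSP90 were lower as well. Of the HSP40 and nucleotide exchange cofactors, 4 of 18 were lower in heated KO cells and 0 higher, and at 0 h 0 were called. Dnajb1, the heat-inducible HSP40, ranged from -1.15 to -0.58 on heated KO arrays, against 0.54 to 1.88 on heated WT arrays. The groups lay apart by more than 1 log2 unit at every time, with differences of -1.11, -2.12, -2.67, -2.95, -1.98, -2.46 and -2.40 from 0.5 to 8 h. The mean was -2.24 ± 0.20 (adjusted p = 0.000464), against -0.34 ± 0.28 at 0 h (adjusted p = 0.553). The other 3 were the HSP40 proteins Dnaja1 (-1.25 ± 0.15) and Dnajb4 (-1.21 ± 0.21), and Bag2, an exchange factor (-0.73, adjusted p = 0.0299), named after its value was seen. Dnaja1 and Dnajb4 did not overlap between genotypes at 0 h either. Dnaja1 read -0.03 to 0.37 on KO arrays of 0 h, against 0.39 to 0.82 on WT arrays. Dnajb4 read -0.07 to 0.57, against 0.62 to 0.79. Bag3, which links HSP70 to autophagy, had a mean of -1.02 but did not pass (limma adjusted p = 0.133). Its difference at 2 h of -3.54 stood apart from the other 6 (-1.05 to -0.12).

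Of HSP90 and its co-chaperones, 4 of 10 were lower in heated KO cells and 0 higher. Hsp90aa1, the inducible HSP90, ranged from 0.14 to 0.37 on heated KO arrays, against 0.83 to 2.17 on heated WT arrays. Its difference was -0.46 at 0.5 h and -2.03 at 8 h, with a mean over 7 pairs of -1.54 ± 0.20 (adjusted p = 0.00324) over 11 probes that spanned -1.98 to 0.36. The HSP90 activator Ahsa1 (-1.37 ± 0.21), the immunophilin Fkbp4 (-1.07 ± 0.16) and Stip1, the adaptor that joins HSP70 to HSP90 (-1.01 ± 0.20), were the others. Ahsa1 was also lower at 0 h (-1.11 ± 0.27, limma adjusted p = 0.0343), the 1 gene of this list called there. Hsp90aa1 read -0.21 to 0.38 on KO arrays of 0 h, against 0.62 to 1.04 on WT arrays. Fkbp4 read -0.05 to 0.21, against 0.60 to 0.77, also without overlap, while Stip1 overlapped. Of all genes, 25.1% had no overlap at 0 h. Chordc1, an HSP90 co-chaperone, did not pass (adjusted p = 0.0612), with differences of -1.27 to -1.63 at 5 times, -0.02 at 0.5 h and 0.38 at 6 h.

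A few small and mitochondrial chaperones were lower. Of 9 small heat shock proteins 2 were lower in heated KO cells, Hspb1 (-1.91 ± 0.25, adjusted p = 0.00324) and the lens and muscle crystallin Cryab (-1.25 ± 0.29, adjusted p = 0.0381). Cryab had differences of -0.04, -0.26 and -0.67 at 0.5, 1 and 2 h, and of -1.53 to -2.30 from 3 h on. The 2 probes of Hspb1 disagreed, with mean differences of -3.98 and 0.16. The third, Hspb8, which works with Bag3, missed the threshold over 7 pairs (-0.85, adjusted p = 0.085) and passed over the 4 pairs from 3 h on (-1.40, adjusted p = 0.0142).

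Of 15 mitochondrial chaperones and proteases 2 were lower, the chaperonin Hspd1 (-1.51 ± 0.19) and its lid Hspe1 (-1.34 ± 0.18), which share 1 promoter region. Hspd1 ranged from -0.64 to -0.27 on heated KO arrays, against 0.20 to 1.46 on heated WT arrays. It was also lower at 0 h (-0.99 ± 0.26, adjusted p = 0.0448), with -0.49, -0.60 and -0.32 in KO cells and 0.45, 0.30 and 0.81 in WT cells. Hspe1 read -1.02 to -0.20 on KO arrays of 0 h, against -0.15 to 0.48 on WT arrays, and was not called there. Over these 5 cytosolic and mitochondrial lists, 17 of 60 tested genes were lower in heated KO cells.

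**Figure D3:**
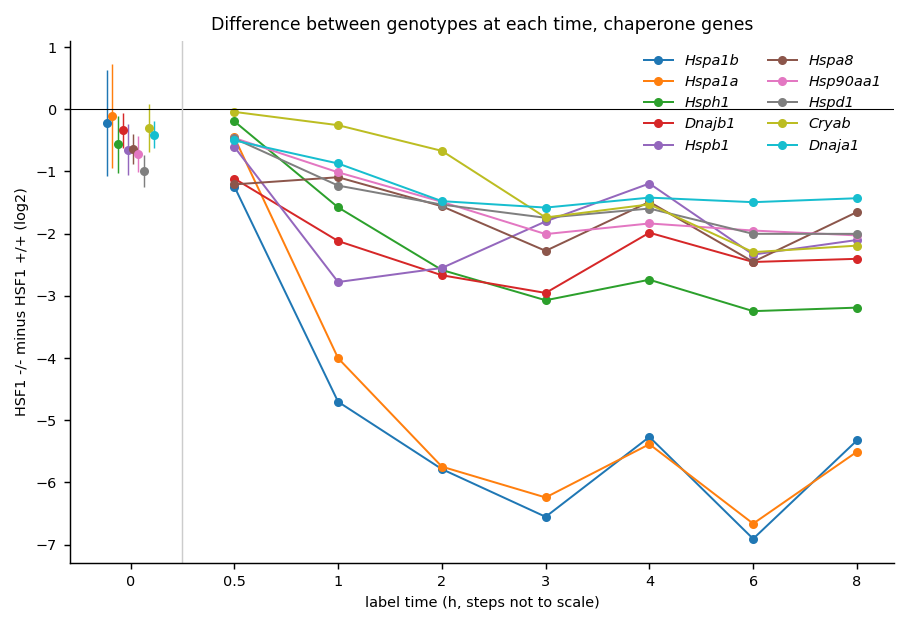
KO minus WT difference (log2) at each label time for 10 chaperone genes. The 0 h difference and its SE are at the left (n = 3 against 3, for Hspa1b 3 KO against 2 WT arrays). That SE comes from a fit of all arrays, so it includes spread between the heated pairs. Each point after 0 h is 1 KO array minus 1 WT array. Hspa1a and Hspa1b drop below -4 from 1 h on, Hsph1 and Dnajb1 lie between -1.98 and -3.25 from 2 h on, and Cryab lies below -1.5 from 3 h on.

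Heat shock elements in front of these genes are shown because they are the sites HSF1 is known to bind. RefSeq promoter windows (GRCm38.p6, 250 bases before to 50 after the start) were matched by symbol for 8545 of the 10590 genes. A run of 2 units was searched as GAANNTTC or TTCNNGAA, each its own reverse complement, and a run of 3 units as GAANNTTCNNGAA or TTCNNGAANNTTC, each the reverse complement of the other. A 3-unit run contains 2-unit runs. A 2-unit run stood in 15.1% of all 32851 windows and in 14.1% of tested genes with a window. It stood in 9 of the 14 chaperone genes called lower that had a window, and in 7 of the 34 chaperone genes with a window that were not called. Among all called genes it stood in 58 of 271 lower in heated KO cells (21.4%) and 23 of 193 higher (11.9%). A 3-unit run stood in 0.603% of all windows, and in 3 of those 14 genes: Hspd1, Hspe1 and Hsph1. The 3-unit run of Hsph1 lies after the start, and the stretch shown for it holds a 2-unit run in front of the start. Chordc1 held 3 such runs and was not called, while the 2 windows of Dnajb1 held none of either kind. A match is a description of letters, and no match says only that these letters were not in the window. Capitals below mark the run of units, written 5′ to 3′ along each gene.
Hspa1a: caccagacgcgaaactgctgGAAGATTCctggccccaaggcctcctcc
Hsph1: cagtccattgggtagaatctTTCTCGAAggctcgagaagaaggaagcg
Hspb1: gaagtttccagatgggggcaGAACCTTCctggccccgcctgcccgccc
Hspe1: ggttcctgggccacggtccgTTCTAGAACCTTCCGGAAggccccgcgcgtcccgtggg
Dnaja1: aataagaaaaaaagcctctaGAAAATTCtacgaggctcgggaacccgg
Dnajb4: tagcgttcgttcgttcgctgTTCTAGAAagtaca
The Hspa1a stretch lies at chr17:34972233-34972280 on the minus strand, with its run at -104 to -97 from the start, and Hspa1b holds the same 48 letters at chr17:34959315-34959362. The others lie at chr5:149636342-149636389 (Hsph1, minus), chr5:135887802-135887849 (Hspb1, plus, 1 of 2 runs), chr1:55088039-55088096 (Hspe1, plus), chr4:40722324-40722371 (Dnaja1, plus) and chr3:152193846-152193879 (Dnajb4, minus). The Hspe1 run of 18 letters is read from the other strand as the run of Hspd1.

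The difference between the heated and the 0 h gap was tested in 1 model of all 20 arrays, since a gene called in heated cells and not at 0 h is not shown to differ between them. Over 7 pairs, 2 of 10590 genes (0.0189%) were called, and 814 (7.69%) had an unadjusted p under 0.05. Neither was a chaperone. Nsmf, a neuronal factor that signals from synapse to nucleus, was higher in KO cells at 0 h (1.79 ± 0.25) and averaged -0.62 in heated cells (adjusted p = 0.0762), a change of -2.41 ± 0.29 (limma adjusted p = 0.0149). It read -0.86, -0.63 and -0.65 on KO arrays at 0 h and -2.21, -2.71 and -2.60 on WT arrays, and after heat -3.13 to -0.68 on KO arrays and -1.95 to 0.13 on WT arrays. Zdhhc16, a palmitoyl transferase, was lower in KO cells at 0 h (-1.66 ± 0.20) and had 0.03 ± 0.13 in heated cells, a change of 1.69 ± 0.24 (adjusted p = 0.0348). Both calls ended in the unpaired model, where 0 genes were called (745 at an unadjusted p under 0.05). They also ended without the 4 h pair, without the 8 h pair, without any 1 KO array of 0 h, and with 0 h arrays paired by number. Zdhhc16 is mixed over its 2 probes (-0.12 and 0.18 in heated cells).

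Of the 17 chaperones called in heated cells, 0 passed that test over 7 pairs and 4 passed it without the earliest pair. The spread used in that test includes change of the difference over the heated times. For Hspa1a the heated minus 0 h difference was -4.75 ± 0.99 (limma unadjusted p = 0.000329, adjusted p = 0.349), for Hspa1b -4.90 (adjusted p = 0.349) and for Dnajb1 -1.90 (adjusted p = 0.2). Without the pair at 0.5 h, 7 genes were called. They were Hspa1a (-5.48, adjusted p = 0.000346), Hspa1b (-5.54, 0.000424), Dnajb1 (-2.09, 0.00505), Hsph1 (-2.17, 0.0465), Chrd (-2.47, 0.0211), Nsmf and Zdhhc16. With the 4 pairs from 3 h on alone, 8 genes (0.0755%) were called, 7 of them (0.0661%) lower. Hspa1a had -5.84 ± 0.34 (adjusted p = 6.44e-05), Hspa1b -5.80 (0.00134), Hsph1 -2.50 (0.00385) and Dnajb1 -2.11 (0.0329). Chrd, a secreted inhibitor of bone morphogenetic proteins, had -2.59 (0.0387), Islr, a fibroblast surface protein, had -1.56 (0.042), and Nsmf and Zdhhc16 were the others. For the heated difference itself those 4 pairs called 183 genes, 117 (1.1%) of them lower in KO cells. With the 3 pairs up to 2 h alone, 0 genes were called by limma for this difference or for the heated difference itself, where 1113 had an unadjusted p under 0.05. Chrd and Islr were named after their values were seen.

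Within the heated pairs alone, limma's test of a slope on log2 time called 0 of 10590 genes, while 834 had an unadjusted p under 0.05, 407 of them falling with time. Under quantile normalization it called 1 gene and with every array scaled to 1 spread it called 2. The HSP70 and HSP110 list had a median of -1.02 over the 3 pairs up to 2 h and -1.66 over the 4 later pairs. Without the pairs at 6 and 8 h, whose KO arrays had the narrowest spread, 129 genes were called, 123 of them among the 590, in a setting chosen after seeing the data. Hspa1b (-4.71, adjusted p = 0.029), Hspa8, Dnajb1, Dnaja1 and Hspd1 were still called. Hspa1a (-4.37, adjusted p = 0.0506), Hsph1 (-2.03, 0.0655), Hsp90aa1 (-1.36, 0.0505), Hspb1 (-1.79, 0.053), Hspe1 (-1.25, 0.053), Ahsa1 (-1.10, 0.0587) and Fkbp4 (-0.89, 0.0631) just missed the threshold. Cryab (-0.85, adjusted p = 0.223), Stip1 (-0.76, 0.134) and Dnajb4 (-1.09, 0.113) missed it by more. With every array scaled to 1 spread, 519 of the 590 genes were called.

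**Figure D4:**
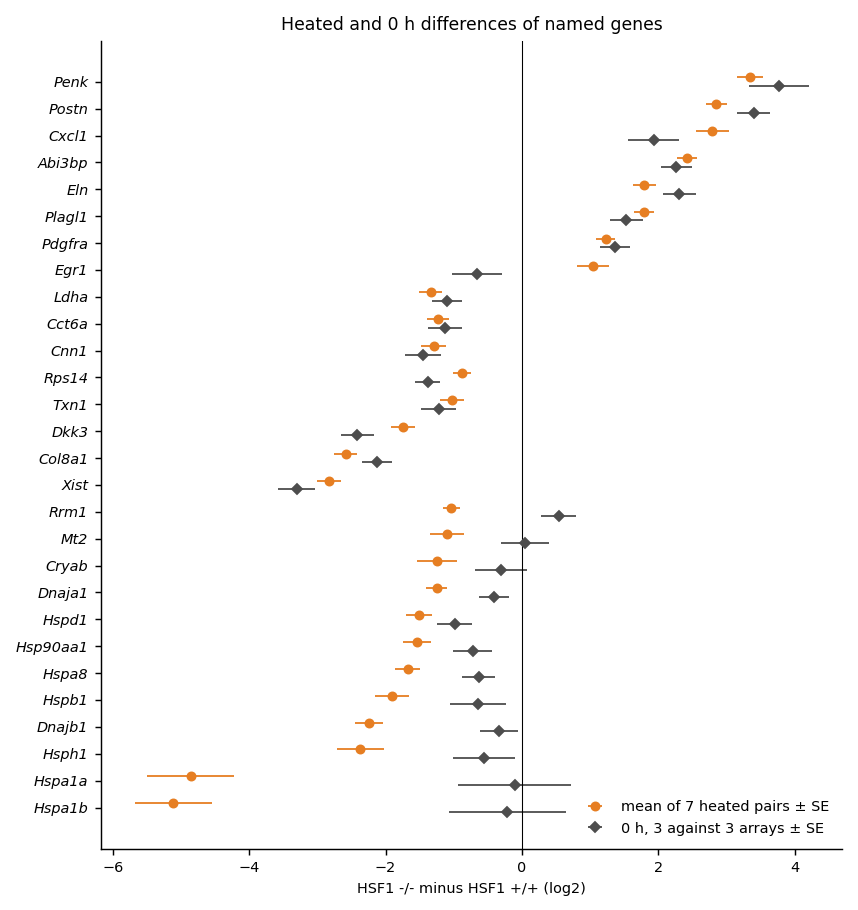
KO minus WT (log2) for 28 named genes, as the mean of 7 heated pairs (6 for Eln) with its SE (orange). The 0 h difference is grey with its SE (n = 3 against 3, for Hspa1b 3 KO against 2 WT arrays). The 0 h SE comes from a fit of all arrays, so it includes spread between the heated pairs. The genes from Penk to Pdgfra and from Ldha to Xist have both marks on the same side of 0. For Egr1, Rrm1 and Mt2 the marks lie on opposite sides of 0. For Hspa1a, Hspa1b and Mt2 the heated mark is away from 0 and the 0 h mark is near it.

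Stress genes outside the chaperones differed in both directions. Mt2, a metal-binding metallothionein, ranged from -0.97 to 1.03 (median 0.43) on heated KO arrays, against -0.62 to 2.33 (median 2.07) on heated WT arrays. Its level was above the 0 h range in both genotypes from 2 h on, and its difference was -0.36, -0.24 and -0.57 up to 2 h and -1.32, -1.17, -1.90 and -2.14 after. The mean of -1.10 ± 0.24 passed (adjusted p = 0.0303) and the 0 h difference was 0.04. The related Mt1 had a mean of -0.67 (adjusted p = 0.0706), and the 2 genes can bind each other's probes. Zfand2a, an arsenite- and heat-inducible proteasome adaptor, had -0.59 (adjusted p = 0.0762).

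Immediate early genes, the first to answer many stimuli, were not lower as a group. Of 23, 2 were higher and 2 lower in heated KO cells, with a list median of 0.14. Egr1, a zinc finger factor, ranged from 0.87 to 3.18 (median 2.66) on heated KO arrays, against 0.85 to 2.24 (median 1.40) on heated WT arrays. The difference was 0.01 and 0.06 at 0.5 and 1 h, and KO read higher by 1.71, 1.09, 1.28, 1.69 and 1.46 from 2 h on, with a mean of 1.04 ± 0.24 (adjusted p = 0.0335). At 0 h the Egr1 difference was -0.66 (adjusted p = 0.355). Klf4 (0.92 ± 0.17) was higher, and Fosl1 (-0.94 ± 0.16) and Atf3 (-0.69 ± 0.17, adjusted p = 0.0435) were lower in heated KO cells. Fosl1 was lower by about as much at 0 h (-0.95). Klf4 was higher on every KO array of 0 h (-0.24 to 0.06) than on the WT arrays (-1.08 to -0.845). Atf3 read -1.03 to -0.775 on KO arrays of 0 h, against -0.770 to -0.47 on WT arrays. The calls of Mt2, Egr1 and Atf3, and that of Cryab, ended without single pairs while the differences stayed of similar size. Mt2 was not called without any 1 of 4 pairs (-1.24 to -0.93 over all 7 such fits), Egr1 of 5 (0.93 to 1.22), Cryab of 5 (-1.45 to -1.07) and Atf3 of all 7 (-0.77 to -0.56). Without the 6 h pair the adjusted p was 0.0848 for Mt2, 0.0971 for Egr1, 0.121 for Atf3 and 0.101 for Cryab.

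Rrm1, the large subunit of ribonucleotide reductase, was lower in heated KO cells and not called at 0 h. Its 0 h values were 2.51, 3.19 and 1.98 in KO cells, against 1.79, 2.23 and 2.05 in WT cells. On heated arrays it ranged from 0.09 to 1.69 in KO cells, against 1.48 to 2.38 in WT cells, and KO was lower in 7 of 7 pairs (-1.04 ± 0.13, adjusted p = 0.00227). The heated minus 0 h difference of -1.57 had an unadjusted p of 0.000201 and did not pass (limma adjusted p = 0.304). It was the 1 called gene of 38 on the DNA replication list. Of 37 mitosis genes, Mad2l1, Cks1b and Nuf2 were lower and 0 higher. These 3 calls ended without any 1 of 5, 5 and 6 of the 7 pairs. The counts of 1 of 38 replication genes and 3 of 37 mitosis genes lay near the share of all genes called (5.57%).

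Other protein quality control genes had smaller differences. The CCT chaperonin folds actin and tubulin, and 7 of 15 genes of the CCT and prefoldin list were lower in heated KO cells, among them Cct6a (-1.24 ± 0.16), Cct3 (-1.15 ± 0.16) and Cct7 (-0.86 ± 0.13). The list median was -0.49 in heated cells and -0.61 at 0 h, where 3 were called. Of 28 ER chaperones and unfolded protein response genes 2 were lower, Hspa5 (-0.99 ± 0.22), the HSP70 of the ER, and Pdia6 (-0.91 ± 0.20). Both calls ended without any 1 of 5 pairs, and that of Hspa5 also when arrays were scaled to 1 spread (adjusted p = 0.0501). Of 38 proteasome subunits, Psmd8 and Psma1 (6 pairs) were lower, calls that ended without 1 and without any 1 of 5 pairs (list median -0.34 in heated cells, -0.42 at 0 h). These counts, 2 of 28 ER genes and 2 of 38 proteasome subunits, lay near the share of all genes called (5.57%). In the ubiquitin and p97 list of 17, Ubqln1 was lower (-0.61, adjusted p = 0.049) and Ubqln2 higher (0.52, adjusted p = 0.0428), and each call ended without centring and in 13 of 18 alternatives. Leaving out 1 pair ended that of Ubqln1 for 6 of 7 pairs (-0.70 to -0.54) and that of Ubqln2 for all 7 (0.45 to 0.58).

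**Figure D5:**
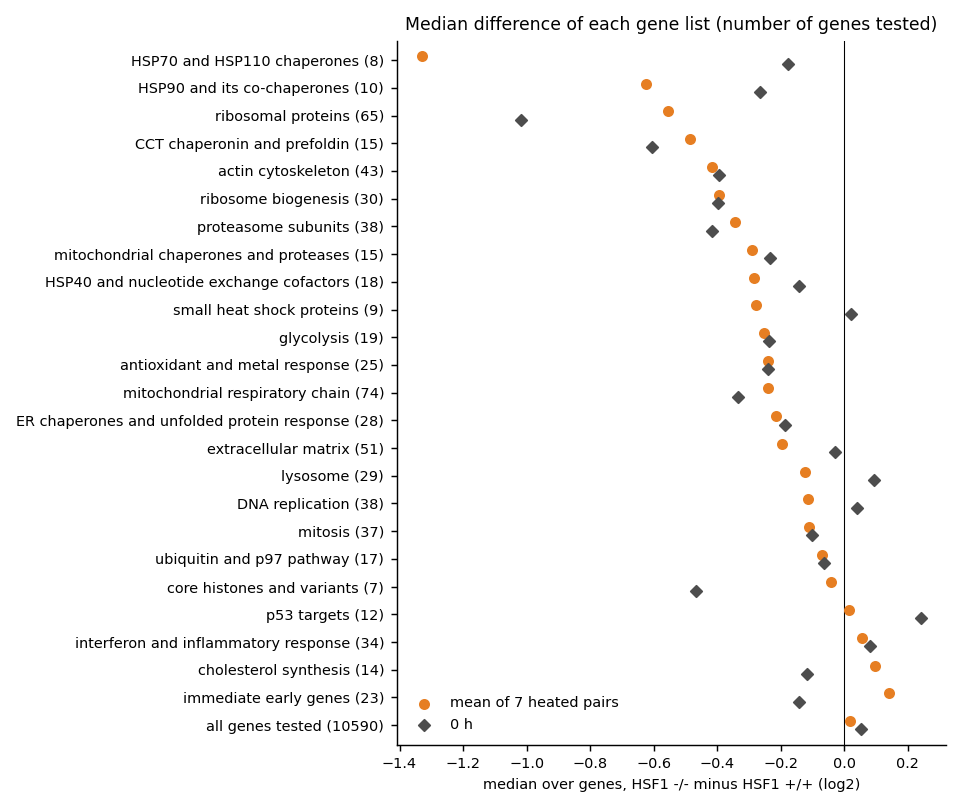
Median KO minus WT difference (log2) over the tested genes of each of 24 lists, with the number of genes in brackets, for the mean of 7 heated pairs (orange circles) and at 0 h (grey diamonds), beside the median of all 10590 genes. The HSP70 and HSP110 list is at -1.33 in heated cells and -0.18 at 0 h, while ribosomal proteins are at -0.55 in heated cells and -1.02 at 0 h.

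Several of the largest differences in heated cells were also present at 0 h. Postn, a matrix protein of wound repair, ranged from 3.21 to 4.13 on heated KO arrays, against 0.58 to 1.19 on heated WT arrays, with differences of 3.28, 2.94, 2.76, 2.48, 3.17, 3.11 and 2.21 from 0.5 to 8 h. The mean was 2.85 ± 0.15 (adjusted p = 7.03e-05) and the 0 h difference 3.40 ± 0.24. Penk, the largest, had 3.35 ± 0.19 in heated cells and 3.77 ± 0.44 at 0 h. Abi3bp, an adhesion protein of the matrix, had 2.42 ± 0.15 in heated cells and 2.26 ± 0.23 at 0 h. Kctd12, Aspn, Sfrp2, Plagl1, Cdo1 and Cdon were called in both states with means of 1.74 to 2.36 in heated cells. Adamts3, a procollagen protease (1.88 ± 0.16), and Fbxl7, a ubiquitin ligase subunit (1.75 ± 0.23), were called in heated cells and not at 0 h, where they had 1.34 and 1.20.

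Cxcl1, a neutrophil chemokine, was also higher in KO cells in both states, with the widest gap at 2 h. Its paired differences were 1.90, 2.73, 3.99, 3.40, 2.78, 2.73 and 1.99 from 0.5 to 8 h (mean 2.79 ± 0.24, adjusted p = 0.000392), against 1.93 ± 0.37 at 0 h. Heated KO arrays ranged from 0.91 to 3.27, while heated WT arrays stayed between -0.99 and -0.36. The heated minus 0 h difference of 0.86 did not pass (unadjusted p = 0.0723). Of 34 interferon and inflammatory genes, Cxcl1, Cxcl12 (1.19 ± 0.15) and Irf1 (0.72 ± 0.12) were higher and Ifitm3, named after its value was seen, was lower (-0.68). At 0 h Cxcl12 read 2.01 to 2.77 on KO arrays, against 0.31 to 0.51 on WT arrays, a wider gap than in heated cells. Irf1, a transcription factor of the interferon response, had a 0 h difference of 0.14.

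On the lower side Col8a1, a short-chain collagen, ranged from -1.13 to -0.02 on heated KO arrays, against 1.36 to 2.71 on heated WT arrays (mean difference -2.59 ± 0.17, adjusted p = 9.14e-05; -2.13 ± 0.22 at 0 h). Dkk3, a secreted Wnt-related protein, had -1.74 ± 0.18 in heated cells and -2.42 ± 0.25 at 0 h, and Ebpl had -2.31 ± 0.18 and -1.65 ± 0.24. Swt1 (-1.66 ± 0.29) and Rftn1 (-1.93 ± 0.39), a lipid raft protein, were not called at 0 h (-0.94 and -1.38), and Rftn1 was not called in heated cells without any 1 of 4 pairs. Xist, the noncoding RNA of X inactivation, had -2.83 ± 0.17 in heated cells and -3.31 ± 0.27 at 0 h, and its 4 probes spanned -4.11 to 0.01. The Y-linked Eif2s3y had -0.17 (adjusted p = 0.466) in heated cells. Of 51 matrix genes 11 were higher and 6 lower in heated KO cells, against 7 higher and 5 lower at 0 h, with Eln, the gene of elastin, at 1.80 ± 0.17 over 6 pairs.

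Many ribosomal protein genes were lower in heated KO cells, and more of them at 0 h. Of 65 ribosomal proteins, 28 were lower and 0 higher in heated cells, against 52 lower at 0 h. The list median was -0.55 in heated cells and -1.02 at 0 h. With every array scaled to 1 spread the medians were -0.43 and -0.73, and without the 6 and 8 h pairs 0 of the 65 were called at a heated median of -0.45. Rps14 had -0.88 ± 0.14 in heated cells and -1.38 ± 0.18 at 0 h, and Rpl9 had -0.97 ± 0.14 and -1.26 ± 0.21. Rpl4 had -0.83 ± 0.13 and -0.80 ± 0.19. The heated call of Rpl4 ended with 1 probe per gene, and its heated difference ranged from -0.90 to -0.23 over the alternatives. Of 30 ribosome biogenesis genes, Dkc1, Nip7 and Fbl were lower in heated KO cells, and all 3 were lower at 0 h as well. The heated call of Nip7 ended without any 1 of 7 pairs (-0.51 to -0.43) and that of Fbl without any 1 of 6 (-0.60 to -0.46). Of 74 respiratory chain genes 3 were lower in heated KO cells, near the share of all genes: Cycs, Atp5b and Cyc1. Atp5b turned to 0.54 with 1 probe per gene and was not called without any 1 of 4 pairs, and Cyc1 without any 1 of 6.

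Some glycolytic and actin genes were also lower in heated KO cells. Of 19 glycolysis genes 6 were lower and 0 higher, with Ldha, which makes lactate (-1.34 ± 0.16 in heated cells, -1.11 ± 0.22 at 0 h), Pgam1 (-1.33 ± 0.21 and -1.29 ± 0.28) and Pgk1 (-0.93 ± 0.15 and -0.85 ± 0.22). Of 43 actin cytoskeleton genes 12 were lower and 1 higher, with medians of -0.42 in heated cells and -0.40 at 0 h. Cnn1, a smooth muscle calponin, had -1.30 ± 0.19 in heated cells and -1.45 ± 0.26 at 0 h, and Tagln2 had -1.23 ± 0.18 and -1.15 ± 0.24. Among 25 antioxidant and metal response genes 6 were lower, among them thioredoxin, Txn1 (-1.03 ± 0.18), and the ferritin chains Fth1 (-0.96 ± 0.19) and Ftl1 (-0.95 ± 0.20), whose calls ended without any 1 of 4 and of 5 pairs. Txn1, Fth1 and Ftl1 were also lower on every KO array of 0 h than on any WT array. Txn1 read 0.59 to 1.13 on KO arrays of 0 h, against 1.82 to 2.18 on WT arrays. Fth1 read 0.46 to 0.92, against 1.61 to 1.96, and Ftl1 0.62 to 0.83, against 1.34 to 1.53. Of 12 p53 targets, Ccng1, a cyclin, alone was lower in heated KO cells (-0.55 ± 0.11). In cholesterol synthesis Fdps alone of 14 was lower (-0.65 ± 0.16), 0 of 29 lysosomal genes were called by limma, where 5 had an unadjusted p under 0.05, and of 7 histone genes H2az1 was lower (-0.69) and H2az2 higher (0.80). The calls of Ccng1, Fdps and H2az1 ended without any 1 of 5, 6 and 4 of the 7 pairs. The counts of 1 of 12 p53 targets and 1 of 14 cholesterol genes lay near the share of all genes called (5.57%).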

How the data were processed

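The values deposited by the authors, 1 signed number per probe and array, were read as log2 ratios of sample (Cy5) to pool (Cy3). No source used here gives their scale, base or direction. The dyes come from the labels, and the largest absolute value, 10.165, is above what a base-10 ratio of 16-bit intensities can reach. The direction is likely, not stated: all arrays share it, and the other one would turn every sign. Scanner settings, background correction and normalization by the authors are not given in the sources used here. Each of the 20 arrays was centred on its median, and probes (42624, of which 21701 name 1 gene) were averaged per gene by GEO's platform annotation. A gene needed 5 complete pairs and 2 values in each 0 h group, which left 10590 genes. The 7 paired differences were tested with limma 3.58.1 in R 4.3.3 (lmFit, eBayes, Benjamini-Hochberg, threshold 0.05), and the 0 h and heated minus 0 h differences in a fit of all 20 arrays with label time as a block. The SE of every 0 h difference therefore includes spread between the heated pairs. The tests were checked on simulated data.

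The pairs rest on label times. Deviations of same-time arrays correlated at -0.072 to 0.298, and those of same-numbered 0 h arrays at -0.021 to 0.011, so the 0 h numbers were not used as pairs. Only 0 h was repeated, and the labels do not say that its arrays are separate cultures, so a p-value may reflect technical spread alone. The number of arrays limits the precision.

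Members and lists were chosen with earlier results of these data known. Genes named were a set of heat shock genes, the 12 largest called differences each way with 7 pairs of 1 sign, the called heated minus 0 h and slope differences, and, from each list, the 3 lowest heated p-values. Hspa4l, Hspa2, Bag2, Ifitm3, Chrd, Islr and the genes of the other observations were named after their values were seen. Alternatives tried were other centring and scaling, 1 probe per gene, complete probes, a variance trend, unpaired and blocked fits, early or late pairs, and leaving out pairs or 0 h arrays.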

Additional observations from a re-analysis of the deposited data

Results flagged for a closer look

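Among the named genes, 8 had 1 paired difference, KO minus WT, that lay far from the others. Chance gives about 1 such gene in 20, and 119 named genes were looked at. Hspa1a had -0.45 at 0.5 h, against -6.66 to -4.00 in the other pairs, and Hspa1b had -1.24 at 0.5 h, against -6.91 to -4.70. Bag3 had -3.54 at 2 h (others -1.05 to -0.12). Cdon, a receptor of hedgehog signalling, had 0.37 at 3 h (others 2.46 to 3.09). H1f2, a linker histone with values in 6 pairs, had -1.20 at 1 h (others -0.28 to 0.12). Hmgcs1, an enzyme of cholesterol synthesis, had 1.60 at 4 h (others 0.07 to 0.49). Cdh1, the epithelial cadherin, had 1.02 at 6 h (others -0.06 to 0.38). Map2, a neuronal microtubule protein, had 2.67 at 4 h (others -0.10 to 0.93).

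The KO minus WT difference itself differed between heated and unheated cells for Nsmf, by -2.41, and for Zdhhc16, by 1.69, in limma's test over all 20 arrays. Both calls ended in the unpaired model and without any 1 KO array of 0 h.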

How the results depend on the processing

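Of the alternative values of the named genes, 1725 heated differences kept their direction and call, 348 lost the call, 54 gained it and 9 changed sign. Zdhhc16 had -0.12 with 1 probe per gene and with complete probes, -0.15 in pairs up to 2 h, -0.092 without the 6 and 8 h pairs and, without single pairs, -0.061 to 0.10. Col3a1 had -0.19 and Atp5b 0.54 with 1 probe per gene, Snap25 -0.040 in pairs up to 2 h and Krt14 0.019 in pairs from 3 h on. Heated calls numbered 0 in pairs up to 2 h (1113 at an unadjusted p under 0.05), 183 in pairs from 3 h on and 129 without the 6 and 8 h pairs. They numbered 341 (without 8 h) to 463 without single pairs, with 353 without 6 h, 375 without 4 h and 383 without 3 h. The 0 h calls numbered 120 in the 6 arrays of 0 h alone and 180 (without KO array 3) to 452 without single 0 h arrays, among them 326, 243, 317 and 313 without KO arrays 1 and 2 and WT arrays 1 and 3. Heated minus 0 h calls numbered 1 without centring, with 1 spread and with a variance trend, 0 unpaired and in pairs up to 2 h, 8 in pairs from 3 h on, 0 without the 6 and 8 h pairs, 0 to 7 without single pairs and 0 to 14 without single 0 h arrays (14 without WT array 1, 7 without WT array 2). Slope calls numbered 1 after quantile normalization, 2 with 1 spread and 0 to 0 without single pairs. Without the replicate block the heated calls numbered 706, and with 0 h arrays of one number paired as a replicate block there were 432 calls at 0 h and 0 for heated minus 0 h. At 0 h, 45.7% of calls were higher in KO cells, against 57.0% without centring, 62.2% after quantile normalization and 58.5% with 1 spread, and the median of all genes was 0.05, against 0.16 without centring. The cause was not tested. The number of arrays, 1 per genotype and heated time, limits precision, and with single arrays at each time a time course cannot be told apart from array-to-array spread.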

Other observations

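Genes of other kinds, named after their values were seen, also differed in heated cells. Id1 and Id2 encode inhibitors of basic helix-loop-helix transcription factors. Id1 was higher in heated KO cells (1.49 ± 0.16, SE, n = 7 pairs, limma adjusted p = 0.00132), with differences of 0.64, 1.97, 1.91, 1.38, 1.53, 1.40 and 1.57 from 0.5 to 8 h, and had 0.33 at 0 h. Id2 was higher by 1.52 ± 0.14 (limma adjusted p = 0.000464) and had 0.61 at 0 h. Nuak2, a stress-responsive kinase, was higher in heated KO cells (1.09 ± 0.17, limma adjusted p = 0.00838) and had -0.47 at 0 h.

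Chrd was lower in heated KO cells (-1.70 ± 0.39, limma adjusted p = 0.037), with 0.92 at 0.5 h, -1.33 to -2.70 at the other 6 times and 0.33 at 0 h. Ccdc117 was lower (-1.10 ± 0.19, limma adjusted p = 0.0124) and had 0.43 at 0 h. Islr was higher in KO cells at 0 h (1.49 ± 0.31, limma adjusted p = 0.0152), and its heated differences were 1.49, 1.27, 0.72, -0.21, 0.08, -0.26 and 0.12 from 0.5 to 8 h. The heated minus 0 h difference of Id1, Id2, Nuak2, Chrd, Ccdc117 and Islr did not pass over all 7 pairs.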
